A study of Saccharomyces cerevisiae with 15 samples.

Results

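The genes described here are 10 genes of Saccharomyces cerevisiae that build or reshape the glucan of the cell wall: FKS1, GSC2, KRE6, SKN1, GAS1, GAS3, GAS5, BGL2, EXG1 and SCW4. They were taken by name from the annotation of the YG_S98 yeast array, and they are 10 of the 5656 genes to which a probe set of the array was assigned alone. The annotation named one of them for 24 probe sets, 23 of which carried no other gene, and 19 of the 23 were bright enough to be tested. Each of the 10 genes had at least 1 tested probe set. All samples came from a strain in which PMI40 had been knocked out in the parent CEN.PK113-7A. PMI40 encodes phosphomannose isomerase, which makes mannose 6-phosphate from fructose 6-phosphate, so the deletion strain takes its mannose from the medium. Cultures ran as aerated batches on mineral medium with 15 g/L glucose and differed in the mannose present at the start, which was 0.75, 1, 1.5, 3 or 5 g/L. RNA was taken at 6 h and each concentration has 3 arrays, 15 in all; a parent strain was not analysed here.

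The wall of budding yeast is a network of beta-1,3-glucan to which beta-1,6-glucan, chitin and mannoproteins are attached. Chains of beta-1,3-glucan are made at the plasma membrane from UDP-glucose by a synthase whose catalytic subunits are encoded by FKS1 and GSC2, and GPI-anchored transglycosylases of the GAS family lengthen and branch them outside the membrane. KRE6 and SKN1 encode related membrane proteins of the secretory pathway that are needed for beta-1,6-glucan, and BGL2, EXG1 and SCW4 encode secreted or wall-bound enzymes of the glucanase type. Most of the outer proteins among these products carry mannose on their N- or O-linked glycans.

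The values are signals on a linear scale, as deposited, with trimmed means of 100.09 to 100.13 on the 15 arrays. Signals of arrays of one concentration correlated at 0.956 to 0.982 across probe sets. Arrays at 0.75 g/L had lower medians (20.1 to 22.1) than the rest (23.3 to 27), and the ratio of 3' to 5' signal of ACT1 was 1.37 to 2.36. For SPT15 that ratio was less even, at 2.81 to 6.9, and highest on replicates 2 and 3 at 5 g/L (6.1 and 6.9). PMI40 itself gave signals of 270, 270 and 233.3 at 0.75 g/L, then 162.7, 113.1 and 200.3 at 1 g/L. It gave 252.9, 202.7 and 255.4 at 1.5 g/L, then 214.6, 237.3 and 210 at 3 g/L, with 252.6, 229.8 and 241.6 at 5 g/L. These signals are above the background of 13.5 on every array, and since it is not known here whether the probes lie inside the deleted stretch, they do not check the genotype. Per the array records, the 3 arrays of a concentration share a sample code, and the labels do not say that they came from separate cultures, so each p-value rests on array-to-array spread, which may be technical. The arrays fall into 4 fluidics runs, inferred from the station and hybridisation time in the records. Run A combined all 0.75 g/L arrays with 3 g/L replicate 1. Run B combined replicates 2 and 3 of 3 g/L with replicates 1 and 2 of 5 g/L. Run C combined all 1.5 g/L arrays with 5 g/L replicate 3, and run D was made up of the 1 g/L arrays. The fluidics record is incomplete for all of run A and for 5 g/L replicate 2.

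Across the full range of mannose, 8 of the 10 glucan genes differed among the 5 concentrations, where 46.6% of all probe sets tested did so (limma, moderated F-test over the group means, Benjamini-Hochberg adjusted p below 0.05). The 2 that did not pass were GSC2 and BGL2, which does not show that they were unchanged. In a bulk culture, fewer cells that express a gene and less of its RNA per cell cannot be told apart. The highest group mean lay at 1 g/L for GAS1, GAS3, GAS5 and SCW4, at 1.5 g/L for FKS1 and EXG1, and at 3 g/L for KRE6. SKN1 and BGL2 were highest at 0.75 g/L and GSC2 at 5 g/L. The place of the highest mean was not counted for all probe sets. GAS5 and SCW4 did not pass between 0.75 and 1 g/L (limma, adjusted p 0.406 and 0.245), and no glucan gene of the 10 passed between 1 and 1.5 g/L. The ratio of the highest to the lowest group mean ran from 1.24 for BGL2 and 1.28 for GSC2 to 2.74 for KRE6 and 2.98 for SKN1.

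**Figure D1:**
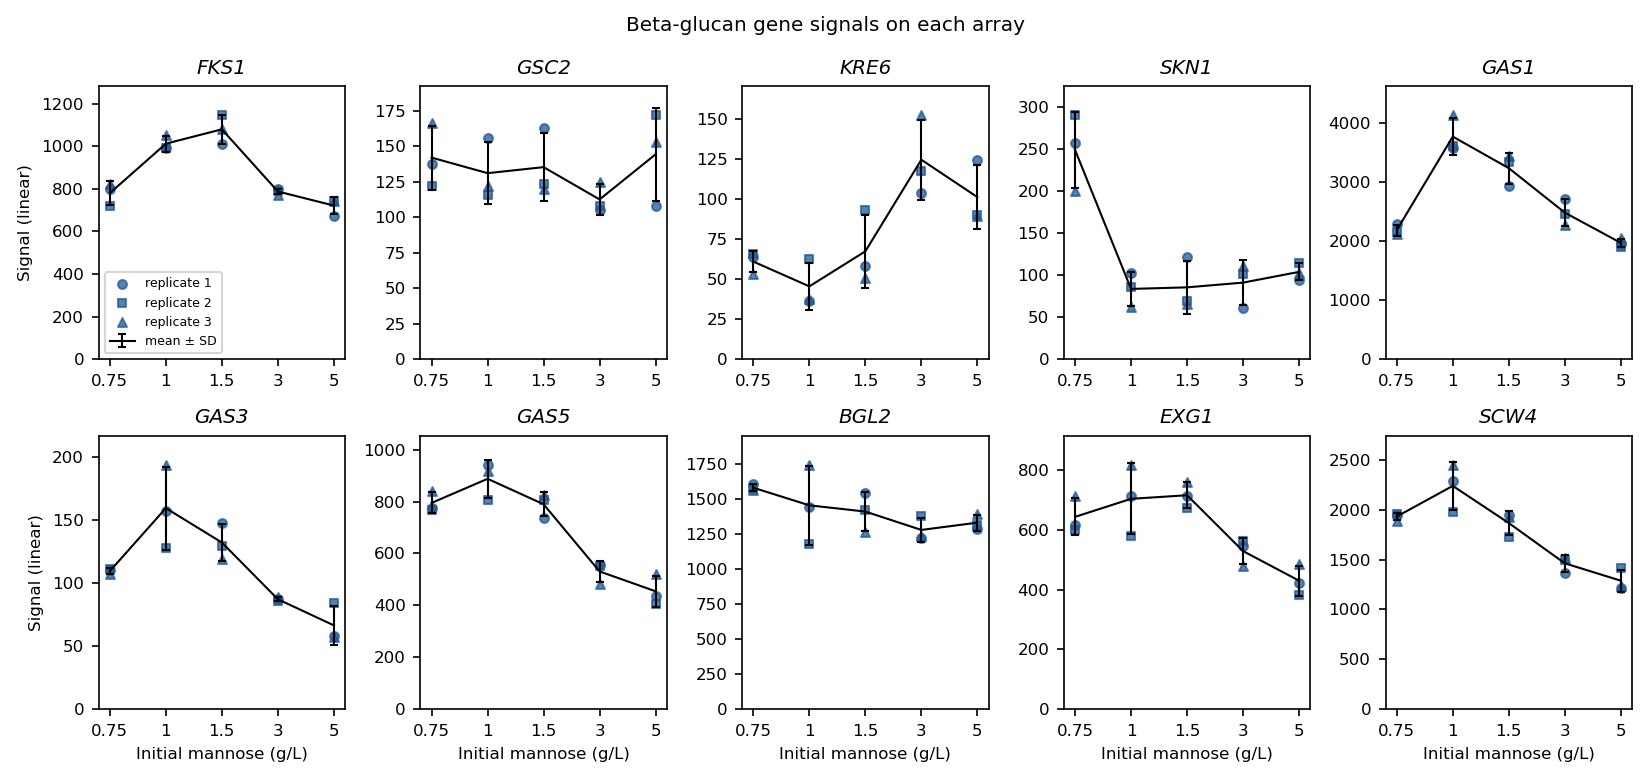
Signal of each of the 10 glucan genes on each array (points, with shapes for the replicates) against initial mannose in g/L (evenly spaced positions), with the mean and SD of 3 arrays; vertical axes start at 0 and differ between genes. The means of GAS1, GAS3, GAS5 and SCW4 are highest at 1 g/L and lowest at 5 g/L, SKN1 stands high only at 0.75 g/L, and KRE6 is higher at 3 and 5 g/L than at 0.75 g/L.

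FKS1, which encodes the main catalytic subunit of the beta-1,3-glucan synthase in growing cells, was highest at the intermediate concentrations. Its signals were 797.3, 718.9 and 824.7 at 0.75 g/L, 990.1, 991.5 and 1055.5 at 1 g/L, then 1010.7, 1145.8 and 1083.1 at 1.5 g/L. On the arrays at 3 g/L it gave 798.1, 792 and 773.6, with 675, 744.7 and 745.5 on those at 5 g/L. All arrays at 1 and 1.5 g/L lay above all arrays at the other 3 concentrations, while the arrays at 0.75 and 5 g/L overlapped. The means were 780.3 ± 54.9 at 0.75 g/L, 1080 ± 67.6 at 1.5 g/L and 721.7 ± 40.5 at 5 g/L (SD, n = 3 each). FKS1 differed among the concentrations (adjusted p 0.00406) and rose from 0.75 to 1 g/L by 0.38 ± 0.12 (log2 change ± SE, adjusted p 0.0268), a call lost without replicate 1 or 2 at 0.75 g/L or replicate 1 or 3 at 1 g/L. A slope over all 5 concentrations did not describe it: the trend was -0.11 ± 0.07 per doubling of mannose (adjusted p 0.225). Over the 4 higher concentrations alone it fell by 0.25 ± 0.06 per doubling (adjusted p 0.00534).

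GSC2 (also FKS2), the alternative catalytic subunit, which is known for its induction in glucose-limited, stressed or sporulating cells, showed no call in any comparison. Its arrays spanned 122.1 to 166.4 at 0.75 g/L, 115.5 to 155.7 at 1 g/L, 119.8 to 162.7 at 1.5 g/L, 104.8 to 125 at 3 g/L and 108.1 to 171.7 at 5 g/L. Every pair of neighbouring groups overlapped, and the means of 112.5 ± 10.9 at 3 g/L and 144.2 ± 32.7 at 5 g/L (SD, n = 3) were the farthest apart. The test for any difference gave an adjusted p of 0.564, and the trend was -0.03 ± 0.07 per doubling (adjusted p 0.837). At the step where FKS1 rose, GSC2 changed by -0.12 ± 0.20 (adjusted p 0.686).

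Both synthase genes have more than 1 probe set, and the values above come from the brightest set of each gene. FKS1 had 8 sets and GSC2 had 7. The 6 other tested sets of FKS1 passed neither the trend nor the test for any difference, with adjusted p of 0.0893 to 0.563 for the latter. Their arrays scattered more, with a pooled SD within groups of 0.52 to 0.91 on the log2 scale against 0.08 for the brightest set. In the second brightest set the 3 arrays at 1 g/L gave 173.3, 407.6 and 536.1, and those at 1.5 g/L gave 111, 434.7 and 230.7. So the higher FKS1 signal at 1 and 1.5 g/L was seen in 1 of 7 tested probe sets. The 3 other tested sets of GSC2 had no call either, with adjusted p of 0.415 to 0.738 for any difference. The share of the 2 paralogs' transcripts in each probe set was not tested.

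**Figure D2:**
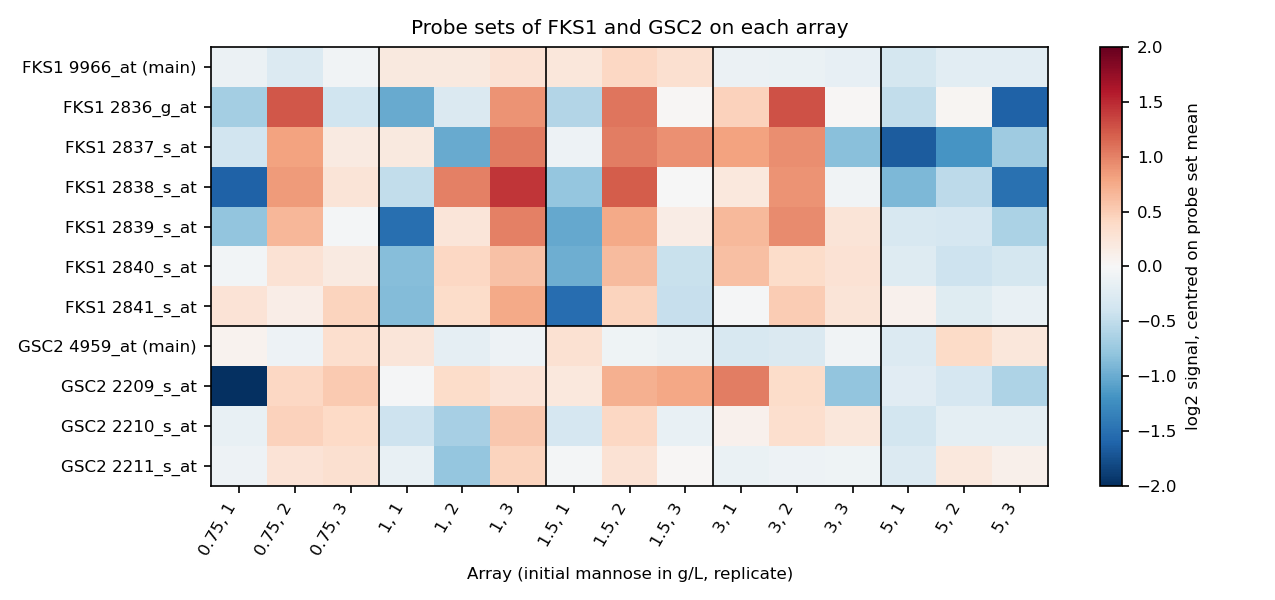
Log2 signal of every tested probe set of FKS1 and GSC2 (rows) on each array (columns, named by mannose in g/L and replicate), centred on the mean of the probe set. The brightest set of FKS1 changes evenly within the groups at 1 and 1.5 g/L, while arrays of the same group differ widely in its other sets.

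KRE6 and SKN1, the related pair needed for beta-1,6-glucan, moved in opposite directions between the ends of the range. KRE6 gave 63.7, 66 and 53.3 at 0.75 g/L, 36.6, 62.4 and 37.6 at 1 g/L, then 58.1, 93.2 and 50.9 at 1.5 g/L. It gave 103.8, 117.7 and 152.4 at 3 g/L, with 124.3, 90.4 and 89.2 at 5 g/L. The 3 arrays at 3 g/L lay above every array at 0.75, 1 and 1.5 g/L, and the arrays at 5 g/L lay above every array at 0.75 g/L. The means rose from 61 ± 6.77 at 0.75 g/L to 124.6 ± 25 at 3 g/L, with 101.3 ± 19.9 at 5 g/L (SD, n = 3). KRE6 was the one glucan gene of the 10 that rose in the trend, by 0.44 ± 0.11 per doubling (adjusted p 0.00825). The step from 1.5 to 3 g/L was 0.92 ± 0.26 (adjusted p 0.0672), and 5 against 0.75 g/L was 0.72 ± 0.26 (adjusted p 0.0452). The last call was lost in 12 of 23 alternative settings. With fluidics run as a block the trend of KRE6 was 0.26 ± 0.14 (adjusted p 0.258), and without the 0.75 g/L arrays and with the block it was 0.12 ± 0.22 (adjusted p 0.819). The latter slope rests on runs B and C alone. Within run A the array at 3 g/L was 0.77 above the mean of the arrays at 0.75 g/L on the log2 scale, within run C the array at 5 g/L was 0.45 above those at 1.5 g/L, and within run B the arrays at 5 g/L were lower than those at 3 g/L (-0.34).

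SKN1 was high at 0.75 g/L only. Its signals there were 256.4, 289.8 and 199.5, against 102.6, 85.7 and 62.3 at 1 g/L. They were 121.3, 69.5 and 65.4 at 1.5 g/L, then 60.7, 101.8 and 110.6 at 3 g/L, with 94.2, 114.3 and 102.8 at 5 g/L. No array at another concentration reached the lowest array at 0.75 g/L, and the other 4 groups overlapped each other. The mean was 248.6 ± 45.7 at 0.75 g/L and 83.53 ± 20.2 at 1 g/L (SD, n = 3). SKN1 fell by 1.59 ± 0.28 from 0.75 to 1 g/L (log2, adjusted p 0.000533), a call kept in all 22 alternative settings run. The run block among these settings was random and could not separate run from mannose. From 0.75 to 5 g/L SKN1 fell by 1.25 ± 0.28 (adjusted p 0.00319). Among the 4 higher concentrations it showed no difference that passed (adjusted p 0.762). Within run A the array at 3 g/L was lower than the arrays at 0.75 g/L (-2.02 on the log2 scale).

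GAS1 encodes the main beta-1,3-glucanosyltransferase of vegetative cells, which joins glucan chains in the growing wall. It rose from 0.75 to 1 g/L and was lower at each higher concentration. Its signals were 2294.6, 2150.7 and 2120.7 at 0.75 g/L, 3573.6, 3611.1 and 4134.4 at 1 g/L, then 2940.7, 3337.5 and 3436.6 at 1.5 g/L. On the arrays at 3 g/L it gave 2719.2, 2462.3 and 2272.4, with 1959, 1907.6 and 2050.3 on those at 5 g/L. From 1 g/L upwards no 2 neighbouring groups overlapped, and all arrays at 5 g/L were below all arrays at 0.75 g/L. However, the difference between 5 and 0.75 g/L, -0.15 ± 0.13 on the log2 scale, did not pass (limma, adjusted p 0.402). With fluidics run as a block it was 0.02 ± 0.24 (adjusted p 0.959). The mean was 2189 ± 93 at 0.75 g/L, 3773 ± 314 at 1 g/L and 1972 ± 72.3 at 5 g/L (SD, n = 3). The step from 0.75 to 1 g/L was 0.78 ± 0.13 on the log2 scale (adjusted p 0.000343) and was called in all 22 alternative settings. The run block among these settings was random and could not separate run from mannose. The fall from 1 to 5 g/L was gradual, so that none of its 3 single steps passed, but the slope over the 4 higher concentrations was -0.40 ± 0.06 per doubling (adjusted p 0.000135). The trend over all 5 concentrations was -0.17 ± 0.09 (adjusted p 0.171).

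GAS3, a GAS family member for which the transglycosylase activity shown for GAS1 is not established, also had its highest mean at 1 g/L. Its means were lower at each higher concentration, as for GAS1. GAS3 was called lower at 5 than at 0.75 g/L (limma, -0.74 ± 0.18, adjusted p 0.00558), where GAS1 did not pass. That call of GAS3 was lost with fluidics run as a block. Its signals were 110.7, 110.9 and 107.2 at 0.75 g/L, 157.1, 128 and 193.8 at 1 g/L, then 148.2, 129.3 and 119.4 at 1.5 g/L. They were 87.2, 85.8 and 88.8 at 3 g/L, with 58.1, 84.3 and 57.1 at 5 g/L. The arrays at 3 and 5 g/L lay below all arrays at the 3 lower concentrations, and the arrays at 5 g/L lay below those at 3 g/L. GAS3 fell by 0.37 ± 0.08 per doubling of mannose (adjusted p 0.00562), and this call stood in all 27 alternative settings, the run block included (-0.40, adjusted p 0.0385). Its rise from 0.75 to 1 g/L was 0.52 ± 0.18 (adjusted p 0.0369), a call that was lost when any array at 0.75 g/L, or replicate 1 or 3 at 1 g/L, was left out, and with the replicate block.

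GAS5, which encodes another glucanosyltransferase of vegetative growth, was nearly level up to 1.5 g/L and lower beyond. Its signals were 775.2, 768 and 840.9 at 0.75 g/L, 940.4, 805.3 and 917.3 at 1 g/L, then 737.4, 805.3 and 825.6 at 1.5 g/L. They were 557.2, 550.7 and 483.6 at 3 g/L, with 437.3, 403.9 and 521 at 5 g/L. All arrays at 3 and 5 g/L were below all arrays at the 3 lower concentrations. The trend was -0.35 ± 0.06 per doubling (adjusted p 0.000351). GAS5 was the only glucan gene of the 10 with a call between 1.5 and 3 g/L, at -0.57 ± 0.14 (adjusted p 0.0358), and that call was lost in 12 of 23 alternative settings, among them leaving out any single array at 1.5 or 3 g/L.

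Among the glucanase genes, EXG1 and SCW4 fell with mannose, while BGL2 passed no test on the deposited scale. SCW4 encodes a wall protein with similarity to glucanases. It gave 1950.7, 1954 and 1891.6 at 0.75 g/L, 2291.9, 1978.2 and 2447.8 at 1 g/L, then 1947.5, 1725.3 and 1926.4 at 1.5 g/L. It gave 1367.5, 1499.2 and 1520.5 at 3 g/L, with 1212.4, 1415.4 and 1237.2 at 5 g/L. All arrays at 3 and 5 g/L were below all arrays at lower mannose. SCW4 fell by 0.27 ± 0.05 per doubling (adjusted p 0.00201) and was lower at 5 than at 0.75 g/L by 0.59 ± 0.13 (-0.59 on the log2 scale, adjusted p 0.00336).

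EXG1, the major secreted exo-beta-1,3-glucanase, gave 617.8, 598.8 and 714.3 at 0.75 g/L, 714.5, 580.9 and 817 at 1 g/L, then 714, 673.4 and 760.9 at 1.5 g/L. On the arrays at 3 g/L it gave 547.4, 561.2 and 478.7, with 422.2, 383.4 and 484.2 on those at 5 g/L. The arrays at 3 g/L lay below every array at lower mannose, while those at 3 and 5 g/L overlapped. EXG1 fell by 0.24 ± 0.06 per doubling (adjusted p 0.0107), which became -0.23 ± 0.09 with fluidics run as a block (adjusted p 0.0976).

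BGL2, an abundant wall protein with endo-beta-1,3-glucanase and transferase activity, had signals of 1561.9 to 1606.2 at 0.75 g/L, 1179.8 to 1741.5 at 1 g/L, 1263.9 to 1545.6 at 1.5 g/L, 1222.4 to 1376.9 at 3 g/L and 1284.6 to 1395 at 5 g/L. The arrays at 5 g/L lay below those at 0.75 g/L, with means of 1331 ± 57.4 and 1580 ± 23.2 (SD, n = 3). The difference, -0.25 on the log2 scale, did not pass (adjusted p 0.228), nor did the trend of -0.09 ± 0.05 (adjusted p 0.223). With arrays scaled to the same median both were called lower (adjusted p 0.0216 and 0.0467).

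Set side by side, 1 of the 10 genes rose with mannose in the trend (KRE6) and 4 fell (GAS3, GAS5, EXG1 and SCW4), where 14.3% of all probe sets tested rose and 9.34% fell. The median slope of the 10 genes was -0.20 per doubling and that of all probe sets tested was 0.02. Between the ends of the range KRE6 was higher at 5 g/L and SKN1, GAS3, GAS5, EXG1 and SCW4 were lower, against 22.2% of all probe sets higher and 13.3% lower. From 0.75 to 1 g/L FKS1, GAS1 and GAS3 rose and SKN1 fell, with backgrounds of 22.1% higher and 15.3% lower, so 3 of 10 rising is close to the share of all probe sets. None of the 10 genes passed between 1 and 1.5 g/L (0.403% of all probe sets did; limma, 0 of 10 at an unadjusted p below 0.05, against 11.1% of all). One, GAS5, passed between 1.5 and 3 g/L (background 4.1%), where 7 of the 10 and 19.4% of all probe sets had an unadjusted p below 0.05. None passed between 3 and 5 g/L (background 0.992%), where GAS1 and GAS3, and 9.34% of all probe sets, had an unadjusted p below 0.05.

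**Figure D3:**
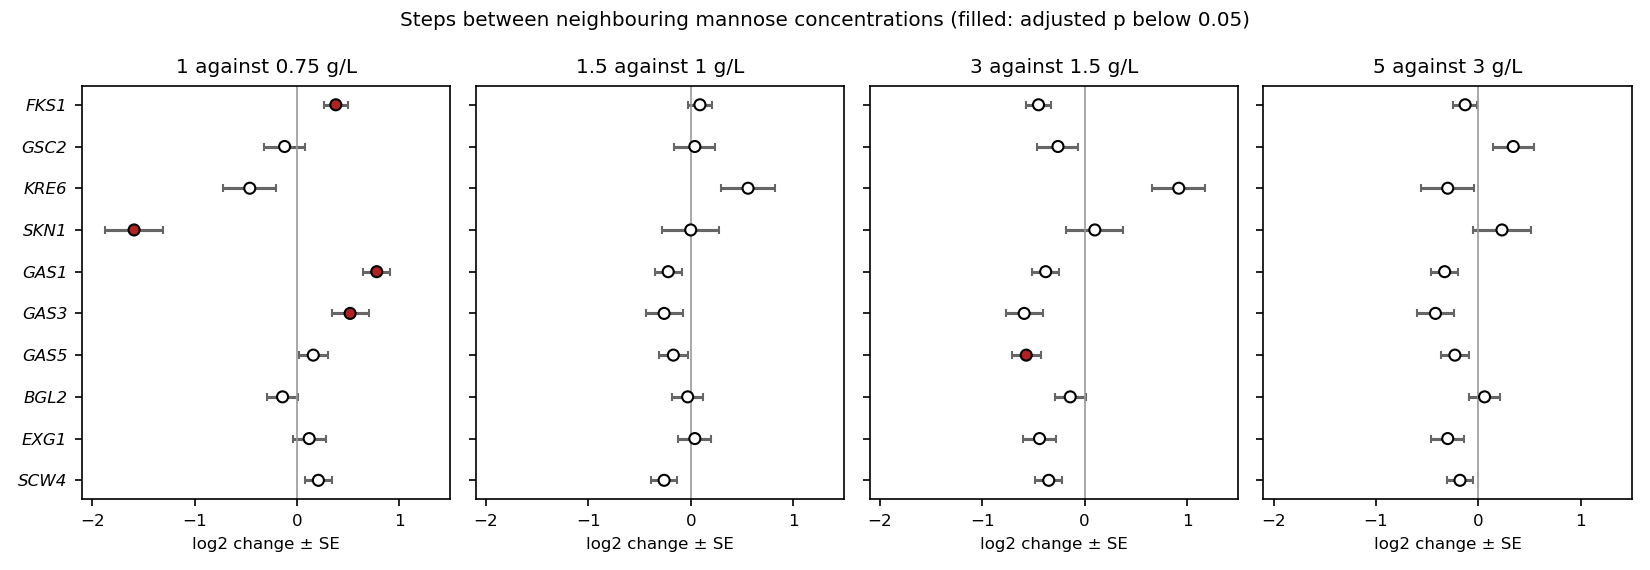
Log2 change ± SE of each glucan gene between neighbouring mannose concentrations, with filled points for adjusted p below 0.05. From 0.75 to 1 g/L GAS1, FKS1 and GAS3 are higher and SKN1 is lower by 1.59, and GAS5 at -0.57 is the only filled point from 1.5 to 3 g/L.

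Without the 0.75 g/L arrays, 7 of the 10 genes showed a trend over the 4 higher concentrations: KRE6 rose (background 14.3%) and FKS1, GAS1, GAS3, GAS5, EXG1 and SCW4 fell (background 12.6%). The median slope of the 10 genes was then -0.29 per doubling, with -0.01 for all probe sets tested. GAS3 had the steepest fall, at -0.55 ± 0.07 (adjusted p 0.000109), followed by GAS5 at -0.44 ± 0.06 (adjusted p 0.000113) and GAS1 at -0.40. The same 7 genes differed among the 4 higher concentrations by the F-test, where 16.5% of all probe sets did.

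Fluidics run moved with mannose in part. With run as a block, GAS3, GAS5 and SCW4 of the 10 genes passed the trend, where 12.6% of all probe sets did. Run D holds the 1 g/L arrays and no other, so these arrays add nothing to a slope fitted within runs. The blocked trend therefore does not cover 1 g/L. Without the 0.75 g/L arrays and with the block, GAS3 passed at -0.64 ± 0.15 (adjusted p 0.0366, background 4.38%), and GAS1 at -0.38 ± 0.10 had an adjusted p of 0.0609. Run A then keeps 1 array, so these slopes rest on runs B and C alone, with arrays at 1.5, 3 and 5 g/L. For 5 against 0.75 g/L with the block, SKN1 at -2.05 ± 0.49 and GAS5 at -0.81 passed (adjusted p 0.0161 and 0.0471; background 15.3%). Inside single runs, in run C the array at 5 g/L was below the mean of those at 1.5 g/L by -1.21 for GAS3, -0.66 for GAS1, -0.60 for GAS5, -0.59 for SCW4, -0.56 for EXG1 and -0.53 for FKS1 on the log2 scale. In run B the 2 arrays at 5 g/L were below the 2 at 3 g/L by -0.14 for FKS1 to -0.37 for EXG1 among these 6 genes. In run A the array at 3 g/L was above the mean of those at 0.75 g/L for GAS1 (0.31) and FKS1 (0.03) and below it for GAS3 (-0.33), GAS5 (-0.51), EXG1 (-0.23) and SCW4 (-0.50). The step from 0.75 to 1 g/L lies between run A and run D, which hold no concentration in common, so run and mannose cannot be told apart there. For that step the run block was fitted as random, so a call kept with it does not separate them.

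The scaling of the arrays also bears on that step. Scaling each array to the same median, in place of the deposited scale, lowered the median change of all probe sets from 0.75 to 1 g/L by 0.21 (-0.21), and the rises of FKS1 and GAS3 were then no longer called. For 5 against 0.75 g/L the split of calls moved from 1 higher and 5 lower to 0 higher and 8 lower, with KRE6 no longer called. The rise of GAS1 and the fall of SKN1 from 0.75 to 1 g/L were called under the deposited, quantile and median scales.

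Within an array, the log2 ratio of 2 related genes shows whether they changed unequally. SKN1 over KRE6 was 2.01 ± 0.12 at 0.75 g/L, 0.89 ± 0.53 at 1 g/L, 0.33 ± 0.74 at 1.5 g/L, -0.48 ± 0.28 at 3 g/L and 0.05 ± 0.39 at 5 g/L (SD, n = 3). Only differences of such a ratio between arrays are read here, since the 2 probe sets need not respond alike. Its slope was -0.70 ± 0.17 per doubling of mannose (two-sided permutation test over the 15 arrays with 100000 resamples, p adjusted over 4 pairs 0.00576). GAS3 over GAS1 and GAS5 over GAS1 also fell, by 0.20 ± 0.06 and 0.19 ± 0.06 per doubling (permutation test, adjusted p 0.00843 for both). GSC2 over FKS1 had a slope of 0.09 ± 0.09 (permutation test, adjusted p 0.334). Its means were -2.47 ± 0.14 at 0.75 g/L, -3.01 ± 0.32 at 1.5 g/L and -2.35 ± 0.27 at 5 g/L. Without the 0.75 g/L arrays none of the 4 ratios passed, with slopes of -0.42 ± 0.19 for SKN1 over KRE6, -0.15 ± 0.08 for GAS3 over GAS1, -0.04 ± 0.04 for GAS5 over GAS1 and 0.26 ± 0.09 for GSC2 over FKS1 (permutation test, adjusted p 0.0934, 0.0934, 0.252 and 0.0532).

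**Figure D4:**
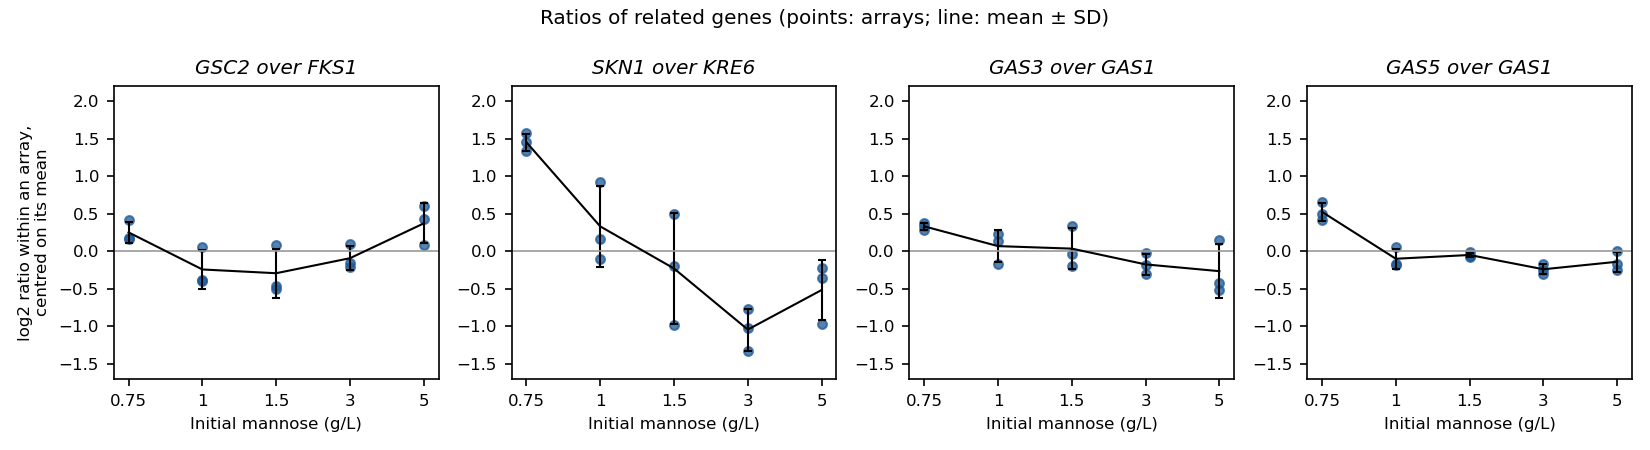
Log2 ratio of 2 related genes within each array, centred on its mean over the 15 arrays, against initial mannose in g/L; points are arrays and the line gives mean ± SD. SKN1 over KRE6 drops from 0.75 to 3 g/L, GAS5 over GAS1 is higher at 0.75 g/L than at the other concentrations, and GSC2 over FKS1 is lowest at 1.5 g/L.

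Pattern likeness was measured as the root mean square difference of centred log2 signals over the 15 arrays, a description with no test. Among the 10 genes GAS5 and EXG1 were closest (0.15), then FKS1 and GAS1 (0.17), EXG1 and SCW4 (0.17), and GAS5 and SCW4 (0.18). KRE6 and GAS3 were farthest apart (1.01), and KRE6 and SKN1 differed by 0.93. Of all other named probe sets, GAS1 was most like RPS22B, a ribosomal protein gene, SEC53, which encodes phosphomannomutase, and SAH1. SCW4 was most like RNR4, YIA6 and VMA2. FKS1 was most like PUB1, SWP1 and EMA19, GAS3 most like TUB2, EMP24 and GND1, and GAS5 most like MNP1, ERP3 and EXG1. EXG1 was most like ERP3, SAR1 and CPR1, KRE6 most like LYS2, ARO4 and ROX1, and SKN1 most like SUE1, IAT4 and AIM19.

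Other genes of glucan metabolism were listed by role, 31 in all, of which 28 were tested and GAS4, SPR1 and CRR1 were too dim. In the trend 5 of the 28 rose and 2 fell, where 14.3% of all probe sets rose and 9.34% fell. With arrays scaled to the same median 2 rose and 4 fell. By the F-test 13 of the 28 differed among the concentrations, with 46.6% of all probe sets as the background. The synthase list held FKS3, RHO1, ROM1, ROM2 and SMI1. FKS3, a further FKS gene, rose by 0.53 ± 0.11 per doubling (adjusted p 0.00263), from 18.6 ± 5.81 at 0.75 g/L to 38.23 ± 6.22 at 5 g/L (SD, n = 3), a signal not far above the background of 13.5. Its 7 other probe sets lay at background on all 15 arrays. ROM1, one of the exchange factors of the GTPase Rho1 that activates the synthase, fell from 77.23 ± 8.61 at 0.75 g/L to 26.7 ± 5.11 at 1 g/L (log2 change -1.54 ± 0.17, adjusted p 8.71e-06), a step at which SKN1 fell too.

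In the list of 11 further genes needed for beta-1,6-glucan, 4 rose in the trend and none fell (limma; median slope 0.16; 14.3% of all probe sets rose and 9.34% fell). Without the 0.75 g/L arrays 2 of the 11 were called, KRE5 and BIG1. KRE5, which encodes a protein of the endoplasmic reticulum, rose by 0.30 ± 0.07 per doubling (adjusted p 0.00436), from 44.13 ± 12 at 0.75 g/L to 88.33 ± 2.12 at 5 g/L. One of its other probe sets rose too, by 0.33 ± 0.10 (adjusted p 0.0307), but did not pass the F-test (adjusted p 0.0809). The remaining tested set of KRE5, at background on 14 arrays, had no call (0.11 ± 0.27, adjusted p 0.817). TRS65 (KRE11) rose by 0.28 ± 0.09 (adjusted p 0.0361), BIG1 by 0.20 ± 0.06 (adjusted p 0.0228) and ROT1 by 0.19 ± 0.05 (adjusted p 0.0155). A second set of BIG1, also at background on 14 arrays, had a slope of -0.02 ± 0.07 (adjusted p 0.901). Without the 0.75 g/L arrays TRS65 had an adjusted p of 0.359 and ROT1 of 0.0581. The 4 rising genes share the direction of KRE6 in the trend, but KRE6 was not called with fluidics run as a block (0.26 ± 0.14, adjusted p 0.258). No fit with that block is given here for the 4 genes. With median scaling fewer of the listed glucan genes rose, as given above. SKN1 had no call in the trend (-0.27 ± 0.16, adjusted p 0.226). Its slope without the 0.75 g/L arrays was 0.14 ± 0.11 (adjusted p 0.364). KNH1 was lowest at 0.75 g/L, with 12.47 ± 1.95, and highest at 1 g/L, with 34.3 ± 5.17 (SD, n = 3; any difference, adjusted p 0.00382). Its mean at 0.75 g/L lay below the background of 13.5, so the size of the change is uncertain. KRE1, KRE9, KEG1, CWH41, ROT2 and CNE1 passed neither test.

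The remodelling list, with 7 of 9 genes tested, had no call in the trend (limma), and SCW10 and TOS1 differed among the concentrations. SCW10, a paralog of SCW4, rose from 171.4 ± 7.41 at 0.75 g/L to 622.9 ± 49.4 at 1 g/L and was 403.7 ± 47.3 at 5 g/L (SD, n = 3). That step was 1.86 ± 0.13 on the log2 scale (adjusted p 1.42e-07), where SCW4 changed by 0.21 (adjusted p 0.245). A dimmer second probe set of SCW10 did not differ (adjusted p 0.911). TOS1, which encodes a wall protein of the glucanase type, rose from 216.1 ± 1.86 to 479.6 ± 12.2 (1.15 ± 0.12, adjusted p 3.73e-06). UTR2, which encodes a transglycosylase that links chitin to glucan, rose from 52.23 ± 7.02 to 249.4 ± 3.72 (2.26 ± 0.15, adjusted p 6.25e-08) and then fell over the 4 higher concentrations by 0.39 ± 0.06 per doubling (adjusted p 0.000262). CRH1, the other crosslinking gene tested, passed neither the trend nor the test for any difference.

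The supply of UDP-glucose, the substrate of the synthase, was covered by 3 genes. UGP1, which encodes UDP-glucose pyrophosphorylase, was 1496 ± 183 at 0.75 g/L and 643.2 ± 48.9 at 1 g/L (SD, n = 3) and fell in the trend by 0.44 ± 0.13 per doubling (adjusted p 0.0197), a call lost without the 0.75 g/L arrays (-0.10 ± 0.09, adjusted p 0.4). PGM2, the major phosphoglucomutase gene, had 1523 ± 295 at 0.75 g/L against 166.9 ± 62.6 at 5 g/L, and it fell by 1.02 ± 0.19 per doubling (adjusted p 0.00149). PGM1, the minor one, peaked at 1 g/L with 148.8 ± 21.9 against 76.73 ± 10.9 at 0.75 g/L (0.95 ± 0.17, adjusted p 0.000445), the concentration at which GAS1, GAS3, GAS5 and SCW4 were highest too.

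**Figure D5:**
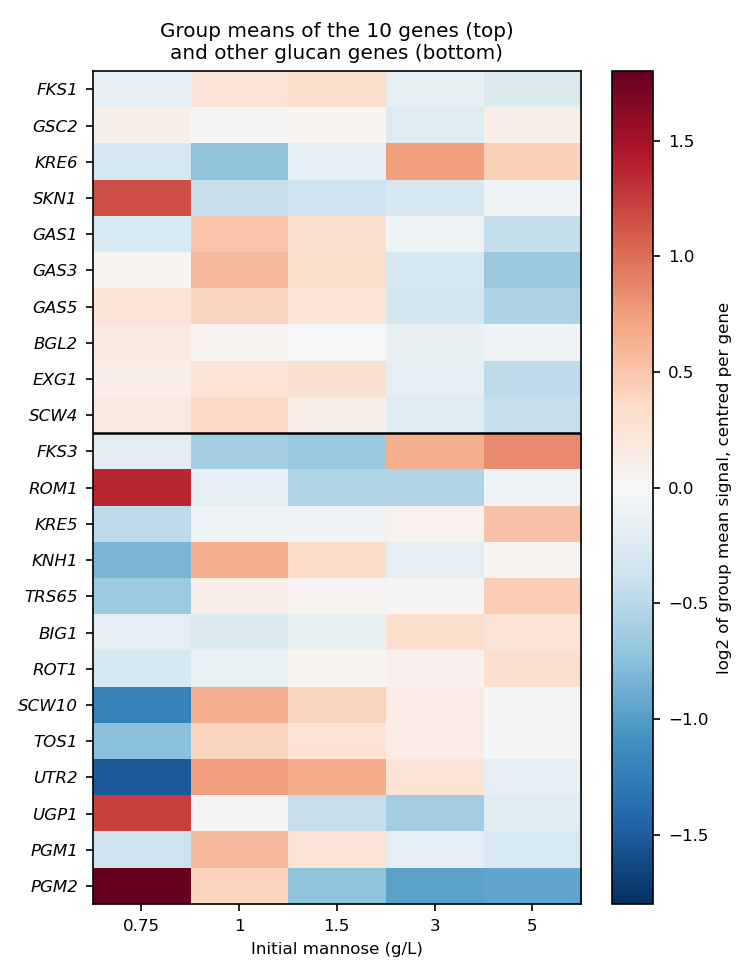
Log2 of the group mean signal of the 10 glucan genes (above the line) and of the 13 other glucan genes that differed among the concentrations (below it), centred for each gene over the 5 concentrations of mannose in g/L. SKN1, ROM1, UGP1 and PGM2 are highest at 0.75 g/L, SCW10, TOS1 and UTR2 are lowest there, and FKS3 and KRE6 are higher at 3 and 5 g/L than at the lower concentrations.

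Glucan genes such as FKS1 and GAS1 are known to be transcribed periodically in the cell cycle, so 2 further lists were read beside them. Of 10 genes of the G1/S transition, including CLN1, CLN2, PCL1 and RNR1, 8 were higher at 1 than at 0.75 g/L (median log2 change 1.3; 22.1% of all probe sets were higher), although 1 of the 8, CLB6, lay at background on all arrays of both groups. None passed in the trend over all 5 concentrations, with the smallest adjusted p at 0.287 for POL1 and 0.292 for CLB5. Over the 4 higher concentrations 6 of the 10 fell (12.6% of all probe sets did), CLN1, CLN2, PCL1, CLB6, CDC21 and RNR1. Of the glucan genes, FKS1, GAS1 and GAS3 were called in the same directions in both comparisons. The share of all probe sets called so in both was not computed. With median scaling the rises of FKS1 and GAS3 from 0.75 to 1 g/L were not called. SKN1 fell at that step, and KRE6 rose over the 4 higher concentrations. Of 7 genes of daughter cells, ASH1 and EGT2 fell in the trend by 0.25 ± 0.07 and 0.26 ± 0.08 per doubling (adjusted p 0.0173 and 0.0272), where 9.34% of all probe sets fell. EGT2 passed neither the F-test nor the trend without the 0.75 g/L arrays. From 0.75 to 1 g/L 0 of the 7 rose and 2, CTS1 and PRY3, fell (median log2 change -0.41; 15.3% of all probe sets fell). The part of these lists in the courses of the glucan genes was not tested.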

How the data were processed

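The deposited table holds linear signal intensity for 9335 probe sets of the YG_S98 array, and no label or file header read here states how the authors computed these signals from the probes. Array experiment records were read for stations, times, messages and sample codes. Values under the 10th percentile (1.5), 13754 of 140025, were raised to it and log2 transformed. Removing 60 control probe sets, and then any whose mean fell under the 25th percentile, left 6956. Tests used limma 3.58.1 (lmFit, eBayes) in R 4.3.3 on all 15 arrays, adjusted by Benjamini-Hochberg over all 6956 probe sets at 0.05: a slope on log2 mannose, an F-test over 5 group means, and contrasts of group means. A gene with several probe sets is shown by the brightest that names it alone, a rule chosen after the files were seen. The background of 13.5 was read at the 95th percentile of 13 controls (mouse and antisense). The annotation gave 1 symbol to 6504 probe sets, several to 328 and no symbol to 2443.

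The members and lists were chosen with earlier results of these data known. Named genes are the 10 members, PMI40, listed glucan genes that passed the trend or the F-test, up to 2 of each cell cycle list by smallest adjusted p for the trend, and the 3 probe sets nearest to each member that passed the F-test; others named from a list were added after their values were seen. Alternatives covered scaling, floor, filter, variance model, blocks, scale of concentration and left-out arrays. Replicate numbers did not pair the arrays: 4 of 30 correlations of same-number deviations exceeded 0.1. Scripts were tested on simulated data with changes even along log2 mannose, in which fewer probe sets changed than here. Of 67 probe sets changed 1.5-fold over the range, the F-test recovered 2 and the trend 18. Of 66 changed 4-fold, they recovered 59 and 65. A planned search of promoters for motifs was not run and no sequence is printed, as no sequence was used here. The 3 arrays of a group limit the precision.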

Additional observations from a re-analysis of the deposited data

How the results depend on the processing

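Of the 10 glucan genes, the number called in the trend, 5, became 8 with each array scaled to the same median (KRE6 higher and 7 lower, FKS1, GAS1 and BGL2 added), 3 with fluidics run as a block, and 1 without the 0.75 g/L arrays and with that block. For any difference, 8 became 5 without the 5 arrays whose fluidics record was not completed, which leaves no 0.75 g/L array. For 5 against 0.75 g/L, 6 (1 higher, 5 lower) became 2 with fluidics run as a block and 8 (0 higher, 8 lower) with median scaling, and for 1 against 0.75 g/L, 4 became 2 with median scaling. For 3 against 1.5 g/L, 1 became 2 with quantile normalization, 2 with median scaling, 2 without a filter on dim probe sets, 3 with another variance model, and 0 with the replicate block, with fluidics run as a block, or without the 5 arrays. The replicate block otherwise ended the call of GAS3 in 1 against 0.75 g/L, where 3 genes were left, and changed no other count of the 10 genes. Leaving out 1 array at a time gave 5 calls throughout for the trend, 8 for any difference, 5 to 6 for 5 against 0.75 g/L, 2 to 4 for 1 against 0.75 g/L, 0 for 1.5 against 1 g/L, 0 to 2 for 3 against 1.5 g/L and 0 for 5 against 3 g/L. The count of 2 for 1 against 0.75 g/L came without 0.75 g/L replicate 1 or 2 or 1 g/L replicate 1 or 3, which ended the calls of FKS1 and GAS3. The slopes of the ratios then ranged from 0.03 to 0.14 for GSC2 over FKS1, from -0.81 to -0.64 for SKN1 over KRE6, from -0.25 to -0.17 for GAS3 over GAS1 and from -0.22 to -0.15 for GAS5 over GAS1. Without the 0.75 g/L arrays the slopes of SKN1 over KRE6 (-0.42), GAS3 over GAS1 (-0.15) and GAS5 over GAS1 (-0.04) no longer passed. The cause was not tested in any of these. Fits without the 5 arrays, without 0.75 g/L arrays for the ratios, and without 0.75 g/L arrays with the run block were added after the data were seen. None of the 10 genes with a call was called in the opposite direction in another setting. The split of calls did change direction. Without 1.5 g/L replicate 2, the call for 3 against 1.5 g/L was KRE6 higher in place of GAS5 lower. For the other listed glucan genes, the trend moved from 5 higher and 2 lower to 2 higher and 4 lower with median scaling. Slopes that did not pass could change sign, as for SKN1 (-0.27, and 0.14 without the 0.75 g/L arrays).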
